A study of Homo sapiens and Mus musculus with 14 samples.

Results

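The genes described here are the 240 protein-coding genes of human chromosome 19 whose symbol is ZNF followed by digits, chosen by symbol and position alone from a RefSeq gene table (GRCh38.p14, which shares its chromosome coordinates with hg38). They are 240 of 1451 protein-coding genes on that chromosome and of 20033 protein-coding genes in all. Another 237 genes with such a symbol lie on other chromosomes. Accessible DNA was mapped by ATAC-seq, in which a transposase cuts open chromatin, in 14 samples of 2 cell lines. The 8 libraries used were of MDA-MB-436, an established human breast adenocarcinoma line: 3 of SMARCAL1 knockout clone 1 (batch 1), 2 of SMARCAL1 knockout clone 2 (batch 2) and 3 of control cells (batch 1). The labels name no treatment and call the replicates biological. SMARCAL1 encodes an ATP-driven translocase that reverses replication forks which have stalled. Mouse melanoma cells (B16F10) gave the other 6 libraries, which were not analysed here.

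Each knockout line was 1 clone, so effects of SMARCAL1 loss and of clonal origin cannot be told apart, and nor can those of clone 2 and batch 2. Both comparisons used the same control list. The authors had merged the replicates of a group into 1 peak list, so there was no replicate test, and the exact binomial 95% intervals printed with shares cover counting error only. The lists held 39537 peaks in clone 1, 34572 in clone 2 and 64806 in control, of which 875, 475 and 1262 lay on chromosome 19. Each peak has a score, read as −log10 of the peak caller's p, from the authors' files. The median score was 6.07 in clone 1, 11.0 in clone 2 and 6.26 in control, so scores were ranked only within a list. The depth of each library is unknown from the lists. A gene-end peak is a peak that lies within 1 kb of either annotated end of a gene. SMARCAL1 itself kept its gene-end peak in the 3 lists, with scores of 13.1 in clone 1, 13.5 in clone 2 and 16.7 in control, and a peak there does not show whether the protein is made. Of 10 genes that mark breast epithelial or mesenchymal cells, 4 had a gene-end peak in clone 1, 3 in clone 2 and 8 in control, with KRT5 and KRT14 at none. Of 7 markers of blood, vessel, pigment and liver cells, 0 had one in clone 1, 1 in clone 2 (PTPRC) and 0 in control. Over all protein-coding genes, 50.2% had one in clone 1, 43.0% in clone 2 and 60.7% in control.

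Most ZNF genes encode proteins with a row of C2H2 zinc fingers, each of which contacts a few bases of DNA, and many carry a KRAB domain. KRAB zinc finger proteins bind DNA repeats and other sites, recruit TRIM28 and the histone methyltransferase SETDB1, and silence the bound DNA, most often transposable elements. The genes arose by repeated duplication and stand in clusters on chromosome 19, where the 3′ parts of many of them are themselves covered by heterochromatin while their start sites are CpG-rich promoters. How reads that map to near-identical copies were handled is not given in the sources used here, so values of close paralogs are uncertain.

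4 promoters from RefSeq (GRCh38.p14, 250 bases before to 50 after the annotated start, written 5′ to 3′ on the gene's strand) are shown because their genes mark the range of outcomes. ZNF160 (chr19:53103373-53103672, minus strand) had the highest control score of the group, and ZNF333 (chr19:14689798-14690097, plus strand) the highest among genes whose peak was absent in both clones. ZNF91 (chr19:23395422-23395721, minus strand), a repressor of SVA retrotransposons, had no peak in any list, and ZNF14 (chr19:19733063-19733362, minus strand) had the highest control score in the same cluster as ZNF91. Capitals mark CCGGAAG, a core of ETS-family binding sites, or its reverse complement CTTCCGG.
ZNF160: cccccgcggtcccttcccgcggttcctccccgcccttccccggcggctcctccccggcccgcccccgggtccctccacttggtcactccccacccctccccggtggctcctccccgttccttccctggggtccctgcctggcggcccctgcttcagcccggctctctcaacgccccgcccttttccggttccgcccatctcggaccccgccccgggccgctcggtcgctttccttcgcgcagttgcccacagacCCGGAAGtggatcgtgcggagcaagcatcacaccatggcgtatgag
ZNF333: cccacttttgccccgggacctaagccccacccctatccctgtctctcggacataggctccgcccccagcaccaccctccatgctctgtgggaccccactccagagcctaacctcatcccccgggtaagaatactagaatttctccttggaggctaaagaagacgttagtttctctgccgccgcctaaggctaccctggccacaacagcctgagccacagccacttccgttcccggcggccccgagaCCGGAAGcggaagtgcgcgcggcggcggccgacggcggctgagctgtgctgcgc
ZNF91: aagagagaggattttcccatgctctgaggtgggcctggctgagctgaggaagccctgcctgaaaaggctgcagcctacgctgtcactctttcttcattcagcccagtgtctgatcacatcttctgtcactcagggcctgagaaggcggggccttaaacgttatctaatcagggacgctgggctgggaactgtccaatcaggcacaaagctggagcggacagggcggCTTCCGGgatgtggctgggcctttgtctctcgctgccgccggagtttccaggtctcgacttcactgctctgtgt
ZNF14: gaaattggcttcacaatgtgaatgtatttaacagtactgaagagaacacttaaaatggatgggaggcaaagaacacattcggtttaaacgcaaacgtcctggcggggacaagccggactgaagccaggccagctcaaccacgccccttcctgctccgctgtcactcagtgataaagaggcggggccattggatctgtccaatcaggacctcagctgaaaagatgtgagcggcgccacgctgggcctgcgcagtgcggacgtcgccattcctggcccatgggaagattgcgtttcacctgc
ZNF160, ZNF333 and ZNF91 hold 1 match each and ZNF14 holds 0. The windows contained 30 CpG pairs in ZNF160, 22 in ZNF333, 11 in ZNF91 and 16 in ZNF14.

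A gene-end peak was present at 106 of the 240 genes in clone 1 (44.2%, interval 37.8 to 50.7), at 95 in clone 2 (39.6%, 33.4 to 46.1) and at 141 in control (58.8%, 52.2 to 65.0). All protein-coding genes had one at 50.2% in clone 1, 43.0% in clone 2 and 60.7% in control. The ZNF genes of other chromosomes lay higher, at 66.7%, 57.0% and 78.5% in the same order of lists, and the other genes of chromosome 19 lay lower, at 34.7%, 21.5% and 47.5%. Of the 240 genes, 80 had a gene-end peak in the 3 lists and 90 in none. Over all protein-coding genes, 7875 of 20033 had one in the 3 lists, and the number with none was not counted.

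Among the 141 ZNF genes that had this peak in control, 41 lacked it in clone 1 (29.1%, interval 21.7 to 37.3), against a background of 21.1% of the 12166 protein-coding genes with such a peak in control. In clone 2 the peak was absent at 50 of them (35.5%, 27.6 to 44.0), against 30.1%. It was absent in both clones at 30 (21.3%, 14.8 to 29.0), against 15.9%, in clone 1 only at 11 and in clone 2 only at 20. The clone 1 interval began just above its background, and it contained the background under several alternative settings, among them lists of equal length (14.7 to 30.6, against 15.9%). The intervals for clone 2 and for both clones contained theirs. The other genes of chromosome 19 had lost 34.6% in clone 1, which lies within the interval of the ZNF genes, and 55.8% in clone 2 and 29.9% in both, which lie above theirs. Their own interval for both clones, 26.2 to 33.8, overlaps that of the ZNF genes, and that for clone 2, 51.7 to 59.9, does not. The ZNF genes elsewhere had lost 17.7%, 27.4% and 12.9%. With only peaks above the median score of each list, the share absent in both clones was 33.9%, against 26.1% of all genes, and with lists of equal length it was 14.0%, against 9.36%. Requiring a clone peak over 50% of the control peak gave 92.2% absent in clone 2, against 90.2% of all genes, where the median peak width was 200 bp in clone 2 and 399 bp in control.

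**Figure D1:**
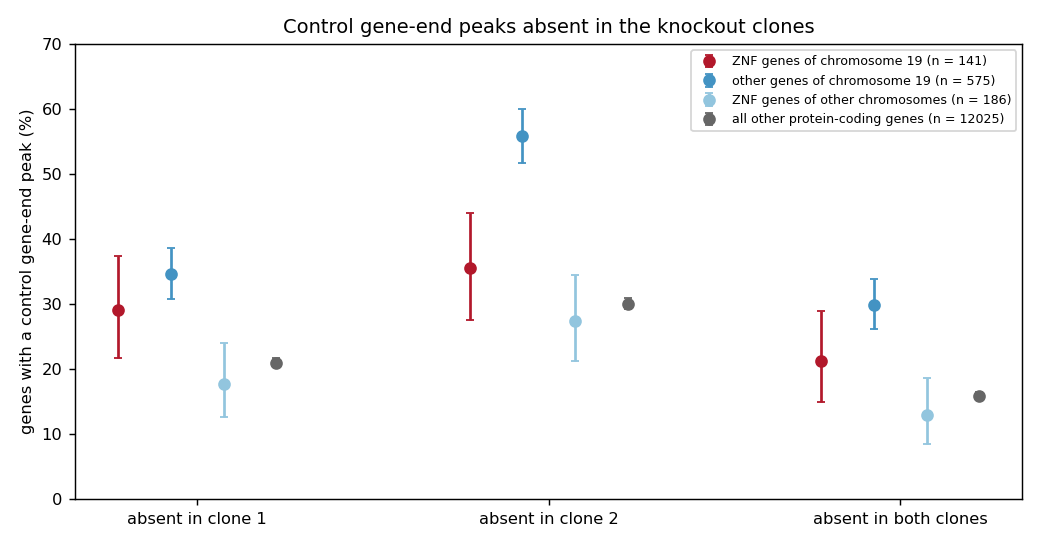
Share of control gene-end peaks that were absent in clone 1, in clone 2 or in both clones, by gene (percent, vertical axis), for the ZNF genes of chromosome 19 and 3 other gene sets. Points are shares and bars are exact binomial 95% intervals. The ZNF genes of chromosome 19 lie at 29.1%, 35.5% and 21.3%, below the other genes of their chromosome, with the widest gap in clone 2.

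Whether a peak was absent followed its control score. The 80 genes with a peak in the 3 lists had a median control score of 11.3 (5.05 to 24.0), and the 30 absent in both clones one of 5.73 (5.05 to 9.59). The same held among all other protein-coding genes, where these medians were 11.8 and 5.87. The control scores were therefore split into 5 equal classes, quintiles, over all protein-coding genes. All 50 ZNF genes in the upper 2 quintiles, from a score of 10.6, kept their peak in both clones, and nearly all other genes did too, with 98.0% in clone 1 and 95.8% in clone 2 in quintile 4, and 99.9% and 99.0% in quintile 5. In the lowest quintile 11 of 34 kept it in clone 1 (32.4%) and 9 in clone 2 (26.5%), against 38.1% and 21.1% of the other genes. In the second quintile 56.7% of 30 kept it in clone 1 and 43.3% in clone 2, against 68.3% and 53.1% of the other genes. In the third quintile 81.5% of 27 kept it in clone 1 and 70.4% in clone 2, against 90.7% and 80.4%. When the other protein-coding genes were weighted to the scores of the ZNF genes, the ZNF genes kept 70.9% in clone 1, against 76.1%, and 64.5% in clone 2, against 66.2%. With the same weighting the other genes of chromosome 19 kept 76.8% in clone 1 and 60.6% in clone 2, so in clone 1 the order between these sets without weighting, where the other genes kept 65.4%, turned round. The ZNF genes of other chromosomes, weighted likewise, kept 75.6% in clone 1 and 63.5% in clone 2. Without weighting they kept 82.3% and 72.6%, so in clone 2 their order against the ZNF genes of chromosome 19 turned round.

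**Figure D2:**
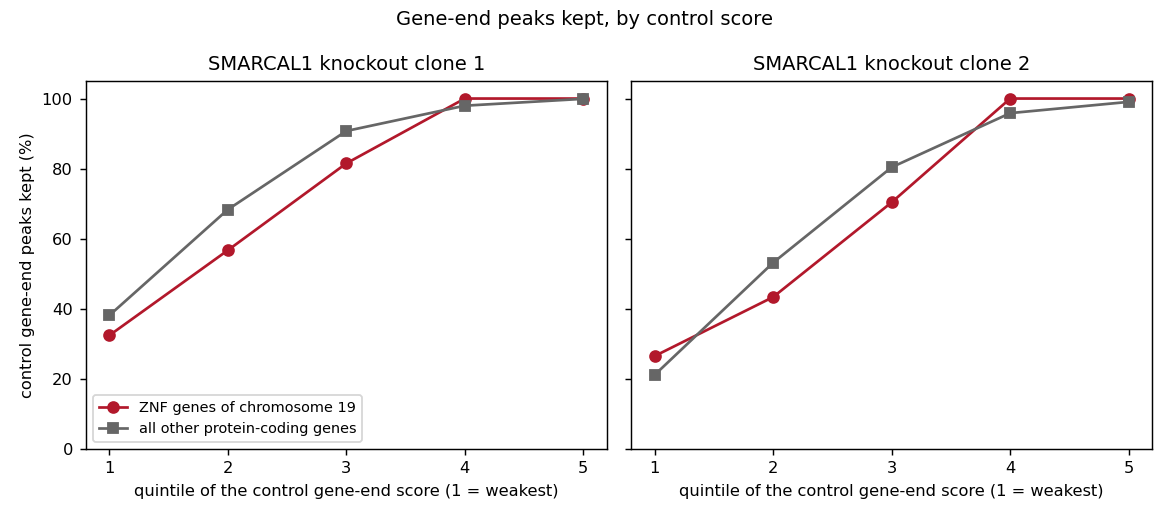
Percentage of control gene-end peaks kept in each clone (vertical axis) by quintile of the control score (horizontal axis), for the ZNF genes of chromosome 19 and for all other protein-coding genes. Both lines climb with the score, and the ZNF genes reach 100% in quintiles 4 and 5.

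Along the chromosome the genes fell into 9 clusters of at least 5 genes, separated by more than 1 Mb, which held 231 genes, with 9 scattered genes besides. The share of genes with a control gene-end peak ran from 13.5% of 37 (ZNF101 to ZNF254) to 86.0% of 57 (ZNF628 to ZNF446). Small clusters vary more by counting alone, and the spread between clusters was not tested. The clusters are named by their first and last gene in order along the chromosome.

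The cluster from ZNF101 to ZNF254 (chr19:19668153-24129968), next to the centromere, held 37 genes and very few peaks. Gene-end peaks were found at 4 of them in clone 1 (10.8%), at 5 in clone 2 (13.5%) and at 5 in control (13.5%). ZNF14 had scores of 7.04 in clone 1, 17.4 in clone 2 and 13.1 in control. ZNF254 had 6.78 in clone 1, 14.7 in clone 2 and 11.3 in control. ZNF708 had 8.08 in clone 1, 21.5 in clone 2 and 10.7 in control. These 3 and ZNF101 were in every list. ZNF101 had 5.57 in clone 1, 12.1 in clone 2 and 9.54 in control. ZNF675, which encodes an inhibitor of TRAF6 signalling, had none in clone 1, 8.25 in clone 2 and 7.49 in control. The other 32 genes had no peak in any list, neither at their ends nor inside them. They include ZNF91 and ZNF93, a repressor of LINE-1 elements. The whole span held 1.34 peaks per Mb in clone 1, 2.47 in clone 2 and 2.69 in control.

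The 2 clusters nearest the long-arm telomere were the opposite. From ZNF628 to ZNF446 (chr19:55476617-58489533), 46 of 57 genes had a gene-end peak in clone 1 (80.7%), 48 in clone 2 (84.2%) and 49 in control (86.0%). Of these 49, 4 lost it in clone 1, 3 in clone 2 and 2 in both. From ZNF175 to ZNF331 (chr19:51571283-53580269), 23 of 39 genes had a peak in clone 1, 22 in clone 2 and 28 in control, of which 7, 7 and 6 lost it in clone 1, clone 2 and both. These 2 clusters were pooled, and the remaining genes set apart, with their values known and without a prior plan. The shares of both groups thus partly describe that choice. The 2 clusters together lost 14.3% in clone 1 (interval 7.35 to 24.1), 13.0% in clone 2 (6.41 to 22.6) and 10.4% in both (4.59 to 19.4). Other protein-coding genes from the start of ZNF175 on had 51 control gene-end peaks. They lost 23.5% in clone 1 (interval 12.8 to 37.5), 31.4% in clone 2 (19.1 to 45.9) and 19.6% in both (9.82 to 33.1). Each of these intervals overlaps that of the ZNF genes.

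The 107 genes left by that choice, outside these 2 clusters and the ZNF91 cluster, had 59 control gene-end peaks with a median control score of 6.33. They lost 49.2% of them in clone 1 (interval 35.9 to 62.5), 67.8% in clone 2 (54.4 to 79.4) and 37.3% in both (25.0 to 50.9). The other genes of chromosome 19 before ZNF175 lost 35.7% in clone 1, 58.2% in clone 2 and 30.9% in both, of which the clone 1 value lies just below the interval of the ZNF genes and the others lie within it. Among clusters with at least 10 control peaks, the largest share absent in clone 2 and in both clones was from ZNF575 to ZNF296 (chr19:43530835-45076478), where 6 of 12 were absent in clone 1, 10 in clone 2 and 5 in both, and 1 was in every list. In clone 1 the ZNF565 to ZNF573 cluster had the larger share absent, 7 of 13. From the control scores alone, 7.21 of the 12 in the ZNF575 cluster would be kept in clone 1, where 6 were kept, and 5.37 in clone 2, where 2 were kept. In the ZNF628 cluster the same calculation gave 45.3 for the 45 kept in clone 1 and 42.8 for the 46 kept in clone 2. The ZNF575 cluster was named for its share absent in clone 2, so its values partly describe that choice. Within its span, 15 of 28 other protein-coding genes had a control gene-end peak. Of these 15, 9 lacked it in clone 1, 10 in clone 2 and 7 in both.

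**Figure D3:**
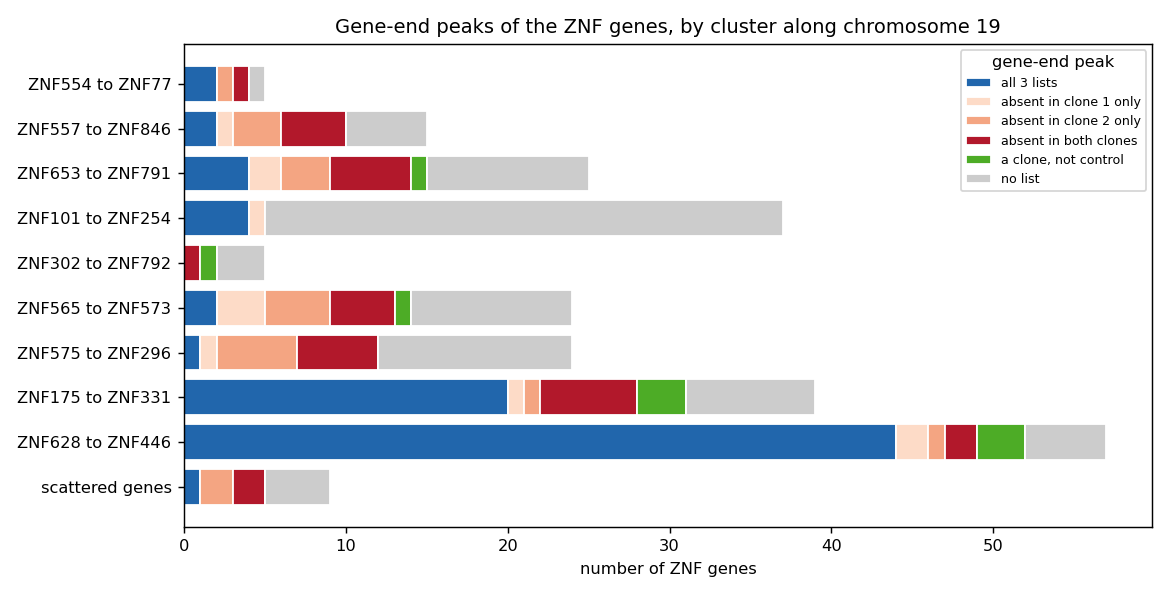
Number of ZNF genes (horizontal axis) in each cluster along chromosome 19, coloured by the lists in which they had a gene-end peak. The ZNF628 to ZNF446 bar is mostly genes in the 3 lists (44 of 57), and the ZNF101 to ZNF254 bar mostly genes in no list (32 of 37).

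High control scores came one after another from ZNF808 on, inside the ZNF175 cluster. This boundary was chosen after its values were seen, so the values on its sides are a description of that choice. From ZNF808 (15.1 in control) to the last gene, 66 of 78 genes had a control gene-end peak, with a median score of 11.5, and 51 scored at least 10. From ZNF175 to ZNF578, just before it, 11 of 18 had one, with a median of 6.75 and a highest score of 8.96, and 0 reached 10. In all of the chromosome before ZNF175, 4 of 144 ZNF genes reached 10.

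Among protein-coding genes that are no ZNF genes, 47 of 127 had a control gene-end peak from ZNF808 on (37.0%), against 524 of 1070 before ZNF175 (49.0%). The median score of these peaks was 10.4, against 6.75, but some were peaks of ZNF genes next to them. Without genes whose strongest peak was also that of a ZNF gene, 41 of 121 had one, with a median score of 8.15, against 520 of 1066 with a median of 6.75. Peaks per Mb from ZNF808 on were 31.7 in clone 1, 24.7 in clone 2 and 34.05 in control, against 13.0, 6.11 and 19.95 before ZNF175. Away from ZNF gene ends, the stretch from ZNF808 on had 19.96 peaks per Mb in clone 1, 12.2 in clone 2 and 22.0 in control, against 12.3, 5.62 and 18.7 before ZNF175. The median control score of these peaks was 6.80, against 6.01. Values per Mb before ZNF175 divide by 51.6 Mb counted from the chromosome start. That length includes the centromere and the span from ZNF101 to ZNF254, with 2.69 control peaks per Mb, which lowers these values.

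**Figure D4:**
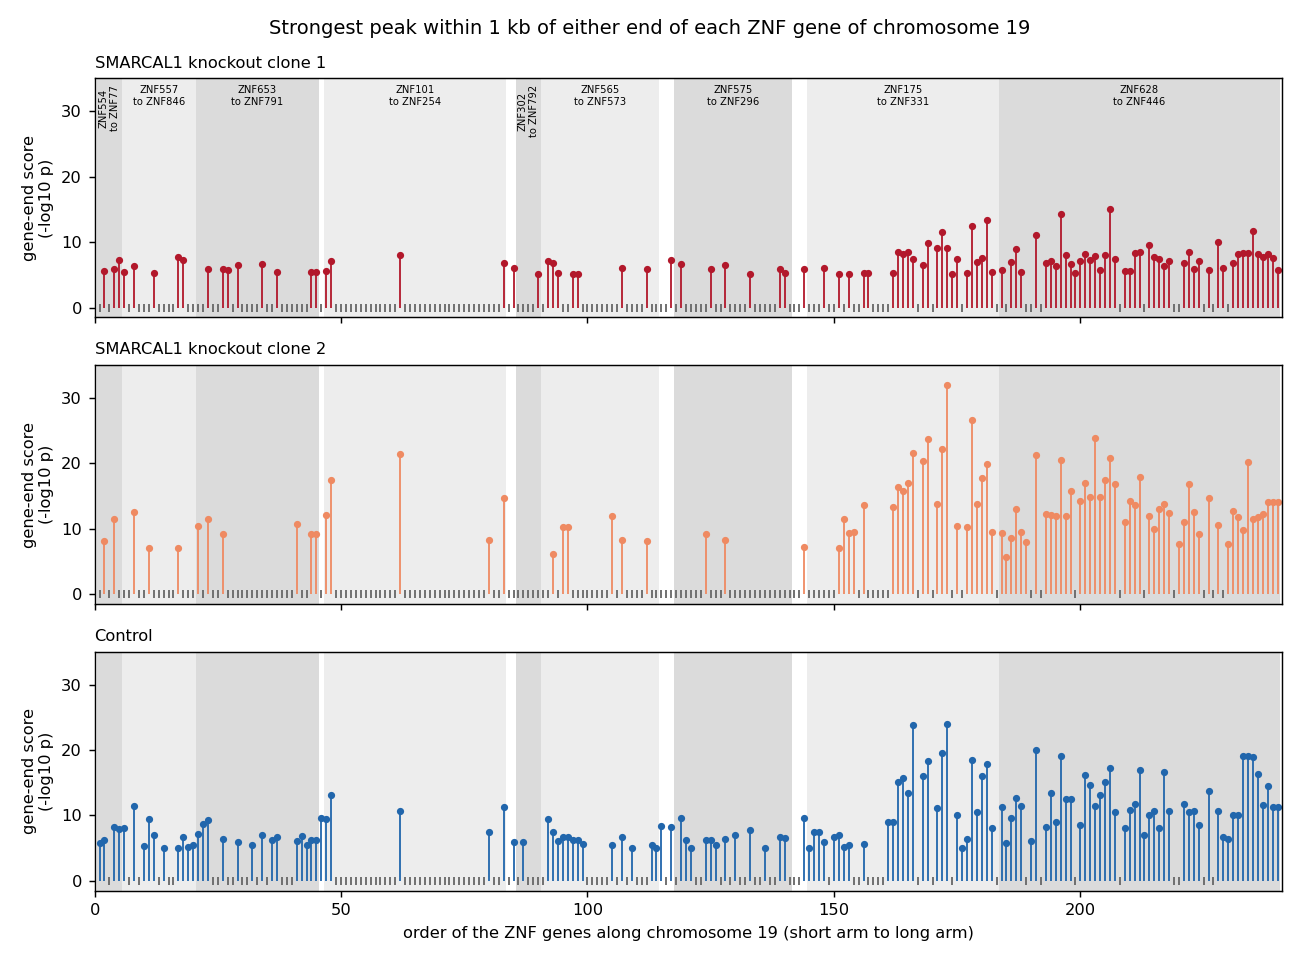
Score (−log10 p, vertical axis) of the strongest gene-end peak of each ZNF gene in order along chromosome 19 (horizontal axis), in clone 1, clone 2 and control from top to bottom. Shading marks the clusters and short grey ticks the genes with no gene-end peak. The ZNF101 to ZNF254 cluster is nearly empty in each panel, and in control the tall points lie towards the end of the long arm, where ZNF160 reaches 32.0 in clone 2 and 24.0 in control. In clone 2 ZNF708, in the ZNF101 to ZNF254 cluster, also stands out, at 21.5.

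All 10 genes with the highest control scores lay in the last 2 clusters and had a peak in the 3 lists. ZNF160 had scores of 9.10 in clone 1, 32.0 in clone 2 and 24.0 in control, where its peak spanned chr19:53102758-53104034 and covered the promoter printed above. ZNF611 had 7.50 in clone 1, 21.6 in clone 2 and 23.8 in control. ZNF787 had 11.0 in clone 1, 21.2 in clone 2 and 20.04 in control. These 3 scores were at least as high as those of 98.6%, 98.6% and 97.2% of all control peaks. ZNF816 had 11.5 in clone 1, 22.1 in clone 2 and 19.6 in control, ZNF471 had 14.3, 20.5 and 19.1, and ZNF845 had 12.5, 26.5 and 18.4. ZNF497 had 11.7 in clone 1, 11.5 in clone 2 and 18.9 in control, and ZNF468 had 9.87, 23.7 and 18.3. ZNF544 and ZNF8, which point the same way, share 1 control peak with a score of 19.03, at the far end of ZNF544 and the start of ZNF8. In clone 1 they also share a peak, with a score of 8.39. In clone 2 the peak at the start of ZNF8 scored 20.3 and lay outside the 1 kb window of ZNF544. The clone 2 score of ZNF544, 9.76, is that of a different peak at its own start. That start scored 6.04 in clone 1 and 9.72 in control, so ZNF544 ranks among the 10 only through the peak shared with ZNF8.

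The 10 highest control scores among genes with no gene-end peak in either clone ran from 9.59 to 6.75. ZNF333 had a control peak at chr19:14689578-14690421 with a score of 9.59, and the nearest peaks lay 159.6 kb away in clone 1 and 160.0 kb away in clone 2. ZNF627 had a control score of 8.73, with the nearest peaks 28.7 kb away in clone 1 and 91.6 kb in clone 2. ZNF546 had 8.43, with the nearest 25.4 kb away in clone 1 and 25.5 kb in clone 2. No clone peak thus lay closer than 25.4 kb to these 3 control peaks. ZNF577 and the next gene, ZNF649, lost 1 shared control peak of score 7.55. ZNF224, whose protein represses the aldolase A gene, had a control score of 7.07, ZNF709 one of 6.86 and ZNF615 one of 6.75. For ZNF534 (8.96) and ZNF550 (7.05) the call depends on the 1 kb limit, since a peak of each clone overlapped the control peak outside the window. The ZNF534 peak is at its far end and is also the start peak of ZNF578, which was in every list. The 30 genes absent in both clones correspond to 29 separate control peaks. For 28 of the 30 genes no clone peak overlapped the control peak. Over all 30, with ZNF534 and ZNF550 included at 0 kb, the median distance to the nearest was 33.3 kb in clone 1 and 57.4 kb in clone 2.

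Among genes absent in clone 1 only, ZNF699 had a score of 7.01 in clone 2 and 9.44 in control, and ZNF653 had 10.4 in clone 2 and 7.24 in control. ZNF382, a repressor often methylated in tumours, shares 1 peak with ZNF529, scored 10.3 in clone 2 and 6.68 in control. Among genes absent in clone 2 only, ZNF576 had 6.61 in clone 1 and 9.68 in control. ZNF146, whose protein consists of zinc fingers alone, had 7.05 in clone 1 and 9.51 in control. ZNF526 had 7.21 in clone 1 and 8.29 in control, ZNF557 had 5.38 and 8.13, and ZNF77 had 7.25 and 7.96. The 10 genes named for an absence in a single clone, ZNF675 included, all had control scores below 10.

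Gains were few. The 99 ZNF genes that lacked this peak in control included 6 with a peak in clone 1, against a background of 5.89% of all genes lacking it, and 4 in clone 2, against 1.54%. Only ZNF571 had one in both clones, with scores of 5.90 in clone 1 and 8.06 in clone 2, against 0.559% of all genes. That peak (chr19:37594597-37595272 in clone 1) is also at an inner start of the neighbouring gene ZNF540. The genes gained in clone 1 alone were ZNF439, ZNF792, ZNF480, ZNF415 and ZNF835, with scores of 5.13 to 5.73. Those gained in clone 2 alone were ZNF616 (9.44), ZNF581 (8.06) and ZNF671 (7.71).

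A promoter entry with strand was available for 210 of the 240 genes, so that the start could be told from the far end. Peaks within 1 kb of the start were found at 93 of the 210 in clone 1 (44.3%), at 84 in clone 2 (40.0%) and at 126 in control (60.0%). At the far end, where the exon with the zinc fingers lies in most such genes, peaks were found at 10 in clone 1 (4.76%), 2 in clone 2 (0.952%) and 8 in control (3.81%). Other protein-coding genes had a far-end peak at 4.69% in clone 1, 2.93% in clone 2 and 7.31% in control. A far-end peak with no peak at the start occurred at 0 ZNF genes in clone 1, 0 in clone 2 and 1 in control, ZNF534. The gene-end peaks of this group are thus almost all start-site peaks.

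The bodies of the ZNF genes, from 1 kb inside each end, held fewer peaks per length than those of all other genes. They contained 40 peaks in clone 1, 27 in clone 2 and 56 in control, or 0.612, 0.413 and 0.857 per 100 kb of body. Other protein-coding genes had 1.08, 0.901 and 1.91 per 100 kb in the same lists. At least 1 body peak was present in 12.9% of ZNF genes in clone 1, 8.33% in clone 2 and 16.7% in control, against 28.7%, 22.2% and 38.5% of other genes, whose median body length was 22.2 kb and that of the ZNF genes 21.1 kb. Of the 56 control body peaks, 31 had no overlapping peak in clone 1 (55.4%), 34 in clone 2 (60.7%) and 28 in both, against 64.8%, 62.6% and 53.0% of those in other genes. The other genes of chromosome 19 had 1.06 body peaks per 100 kb in clone 1, 0.299 in clone 2 and 1.44 in control, with at least 1 in 15.4%, 4.71% and 19.4% of genes, so in clone 2 the ZNF genes had more than they did.

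Many body peaks stood at a second annotated start. Such an inner start was known for 44 ZNF genes, and a peak lay at it in 22 of them in clone 1, 15 in clone 2 and 26 in control (34.1% in clone 2 and 59.1% in control). Of 3375 other genes with an inner start, 37.6%, 31.6% and 47.7% had a peak there in the same lists. For 16, 13 and 19 of the ZNF genes with such a peak, the gene had no gene-end peak in that list. The same held for 559 of 1270 other genes in clone 1, 577 of 1067 in clone 2 and 606 of 1610 in control. Some inner-start peaks were also gene-end peaks of another ZNF gene. In control, that of ZNF565 was the ZNF146 peak (9.51), and that of ZNF581 had the score of the ZNF580 peak (6.04). Inner-start counts also include peaks that were gene-end peaks of the same gene, as at ZNF550 in control. ZNF331, a gene often methylated in gastrointestinal tumours, had an inner-start score of 13.3 in clone 1, 20.3 in clone 2 and 15.9 in control. ZNF444 had 14.0 in clone 1, 23.5 in clone 2 and 21.4 in control. ZNF558 had 13.5 in clone 1, 15.2 in clone 2 and 15.2 in control. At their gene ends these 3 had no peak in any list. The gene with the highest number of control body peaks was ZNF536, a repressor of neuronal differentiation genes and at 488 kb the longest of the group, with 3 in clone 1, 0 in clone 2 and 6 in control. ZNF331 followed with 5 in clone 1, 5 in clone 2 and 4 in control. A further 8 genes had 2 each in control. Of these, ZNF534, ZNF578 and ZNF581 had 0 in both clones, and ZNF565 and ZNF575 had 1 in clone 1 and 0 in clone 2. ZNF83 had 1 in each clone, ZNF611 had 0 in clone 1 and 2 in clone 2, and ZNF600 had 4 in clone 1 and 2 in clone 2. In control, the body peaks of ZNF565 include the gene-end peak of ZNF146, and those of ZNF600 that of ZNF28, genes that lie inside them. With body and end peaks together, 126 genes had a peak in clone 1 (52.5%), 110 in clone 2 (45.8%) and 163 in control (67.9%), and 69 had none in any list, 32 of them in the ZNF91 cluster. The same shares over all genes were not computed.

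Of 21 ZNF genes named for a known role, 7 had a gene-end peak in the 3 lists, against 80 of all 240 ZNF genes and 7875 of the 20033 protein-coding genes. ZNF274, which recruits SETDB1 to the 3′ ends of zinc finger genes, had scores of 8.24 in clone 1, 11.7 in clone 2 and 10.0 in control. ZNF417 and ZNF587, a pair of close paralogs that silence HERV-K, had 5.72 and 7.06 in clone 1, 14.7 and 9.21 in clone 2, and 13.7 and 8.51 in control. Read assignment between such paralogs is uncertain. ZNF473, which takes part in processing of histone transcripts, had 5.82 in clone 1, 7.19 in clone 2 and 9.55 in control. ZNF582, methylated in cervical tumours, had 6.74, 12.2 and 8.32, ZNF628 had 5.75, 9.29 and 11.3, and ZNF667 had 6.38, 12.02 and 8.94, each in clone 1, clone 2 and control. Peaks were absent in both clones at ZNF224 and at ZNF175, a repressor of HIV transcription, which had a control score of 5.05. They were absent in clone 1 only at ZNF675 and ZNF382, and ZNF671 had a peak in clone 2 alone. The other 9 had none: ZNF91, ZNF93, ZNF420, ZNF574, ZNF296, ZNF541, ZNF350, ZNF331 and ZNF154, although ZNF331 and ZNF574 had an inner-start peak in every list and ZNF420, an inhibitor of p53, had one in control.

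The promoters shared sequence features that the choice of genes did not use. CCGGAAG, searched on both strands, was present in 92 of 210 promoters (43.8%, interval 37.0 to 50.8), against 14.2% of all 15842 RefSeq promoters of the same length and 18.96% of those with a control gene-end peak. The ZNF genes of other chromosomes had it in 35.9%, and the other genes of chromosome 19 in 13.4%. Promoters of ZNF genes in the 3 lists held it in 40 of 71 (56.3%, 44.0 to 68.1), and those absent in a clone in 20 of 56 (35.7%, 23.4 to 49.6). By cluster the share was 72.4% from ZNF101 to ZNF254, 62.5% from ZNF175 to ZNF331, 59.6% from ZNF628 to ZNF446 and 8.33% from ZNF653 to ZNF791. These shares did not follow the share of genes with a peak: ZNF302 to ZNF792, with a control gene-end peak at 1 of 5 genes, had matches in 3 of 4 promoters, and ZNF554 to ZNF77, with one at 4 of 5 genes, had 0 in 5. The promoters held a median of 10 CpG pairs from ZNF101 to ZNF254, 26 from ZNF302 to ZNF792, 25 from ZNF554 to ZNF77, 25 from ZNF175 to ZNF331 and 23 from ZNF628 to ZNF446. Neighbouring genes are copies of each other, so their matches are not independent.

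The other motifs were also searched on both strands. CCAAT was present in 53.3% of ZNF promoters, against 36.4% of all promoters, and GCCATNTT (a core of YY1 sites) in 13.3%, against 7.92%. GGGCGG (the GC box) was present in 69.0%, against 58.3%, but among promoters with a control gene-end peak in 67.7% of the ZNF genes, against 70.2% of all genes. TATAAA was present in 2.38%, against 9.75%, and CACGTG (the E-box) in 3.81%, against 8.82%. TGANTCA (the AP-1 site) was present in 6.67%, against 5.70%. With a control gene-end peak it was in 13 of 127 ZNF promoters (10.2%, interval 5.56 to 16.9), against 4.39% over all genes. Without one it was in 1 of 83 ZNF promoters (1.20%, 0.0305 to 6.53), so this contrast rests on few matches. Promoters of ZNF genes in the 3 lists held it in 6 of 71, and those absent in a clone in 7 of 56. TGACGTCA was present in 3.33%, against 2.56%, GCGCATGC in 3.81%, against 4.28%, and TCTCGCGA in 1.43%, against 1.75%. None of the 10 motifs contains another, but matches may overlap. The promoters of ZNF genes that had this peak in control held a median of 23 CpG pairs, against 16 in the rest.

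**Figure D5:**
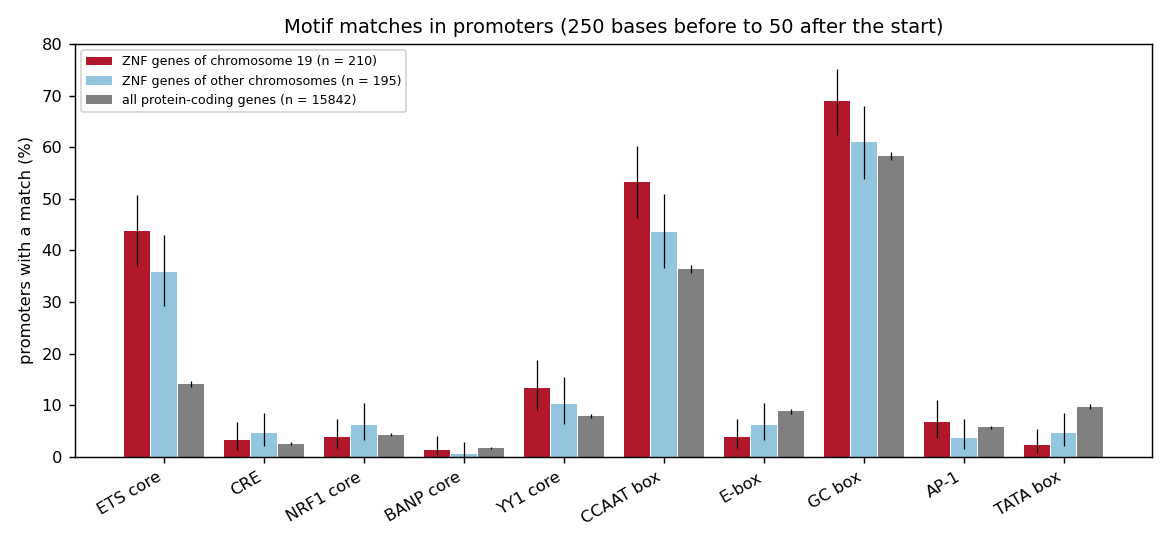
Percentage of promoters with a match (vertical axis) for the 10 motifs searched (horizontal axis), for ZNF genes of chromosome 19, ZNF genes of other chromosomes and all protein-coding genes. Bars start at 0 and lines are exact binomial 95% intervals. The widest separation in percentage points is at the ETS core, 43.8% of the ZNF promoters of chromosome 19 against 14.2% of all promoters.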

How the data were processed

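ATAC-seq libraries of control and SMARCAL1 knockout MDA-MB-436 cells were used as 3 merged peak lists, 1 per group, per the labels. The submitters' processing notes name HISAT2, MACS2, ChIPseeker and hg38. What versions, settings and rules for multi-mapped reads applied is not given in the sources used here. Without a header, the authors deposited 1 score per peak, whose values match −log10 of a Poisson p. It served to describe, rank and filter peaks within a list.

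Deposited starts were counted from 0 and are printed from 1. Genes, promoters and strand came from RefSeq tables of GRCh38.p14. A gene-end peak overlapped the 1000 bp on either side of a gene end by at least 1 bp, and the strongest gave the score. Clusters were split at gaps over 1 Mb. Shares carry exact Clopper-Pearson 95% intervals (scipy 1.17.1), with no p-values. Counting was tested on simulated lists. Alternatives changed the window, score limit, list length, overlap, shared windows, cluster gap and score classes. Genes were named by rank of control score per outcome, most body peaks, gain in both clones, or known role; inner-start examples and the ZNF808 boundary were chosen after their values were seen. The genes and lists were chosen with earlier results of these data known. Protein features were not analysed here.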

Additional observations from a re-analysis of the deposited data

How the results depend on the processing

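Of 59 alternative values, 41 stayed within the counting interval of the reported value or within 1.5 times a count, and 18 did not. With peaks above the median score of their list only, genes with a gene-end peak came to 27.1% in clone 1, 25.4% in clone 2 and 45.4% in control, the absent shares to 43.1% in clone 1, 46.8% in clone 2 and 33.9% in both, gains in both clones to 0, and genes with a control body peak to 10.4%. With the lists cut to equal length, the control share was 47.5%, the absent shares were 25.4% in clone 2 and 14.0% in both, and 3 genes gained a peak in both clones. Requiring overlap of 50% of the control peak gave 92.2% absent in clone 2 and 29.1% in both, where the median peak width is 200 bp in clone 2 and 399 bp in control, and 90.2% of all genes were then absent in clone 2. Without the ZNF628 to ZNF446 cluster, an alternative chosen after seeing the data, as was counting each control peak once, the absent shares were 40.2% in clone 1, 51.1% in clone 2 and 30.4% in both. With a window of 500 bp, 1.43% of genes had a control far-end peak. The clone 1 share stayed above that of all genes in each setting run over all genes. But its interval contained theirs with a window of 3000 bp (from 21.3, against 21.5%) and lists of equal length (from 14.7, against 15.9%). The same held with overlapping clone peaks counted (from 20.5, against 20.6%) and with 50% overlap (from 22.4, against 28.3%). Counting each control peak once was run for the ZNF genes only. Its interval began at 20.9, and the 21.1% of all genes beside it counts genes, not peaks. Against all genes the clone 2 share turned round with peaks above the median score, 46.8% against 49.4%. No paired analysis was possible because the replicates of each group were merged into 1 list. Peak lists hold no read depth, so an absent peak may lie below the caller's limit, and peaks do not measure expression.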

Other observations

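Genes of the machinery that KRAB zinc finger proteins recruit mostly had peaks. Of 18 such genes, 14 had a gene-end peak in clone 1 (77.8%, interval 52.4 to 93.6), 13 in clone 2 (72.2%, 46.5 to 90.3) and 16 in control (88.9%, 65.3 to 98.6). All protein-coding genes had one at 50.2%, 43.0% and 60.7% in the same order. The 18 are a short list chosen by role. SETDB1, the H3K9 methyltransferase, had scores of 6.78 in clone 1, 15.7 in clone 2 and 8.89 in control, and its cofactor ATF7IP had 11.8 in clone 1, 20.5 in clone 2 and 15.7 in control. MPHOSPH8 of the HUSH complex had 8.68 in clone 1, 12.9 in clone 2 and 13.3 in control. The methyltransferase gene SUV39H1 had a peak in control alone, with a score of 6.31. ATRX had none in clone 1, 14.9 in clone 2 and 6.76 in control, and DAXX, its partner, had 6.07 in clone 1, none in clone 2 and 6.63 in control. TRIM28, the KRAB corepressor, lies on chromosome 19 beyond the last ZNF gene and had no gene-end peak in any list.

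Of 16 further zinc finger genes of chromosome 19 with other symbols (ZFP, ZSCAN, ZIM, ZIK and PEG3), 7 had a gene-end peak in clone 1, 6 in clone 2 and 7 in control. As shares these were 43.8%, 37.5% and 43.8%, against 50.2%, 43.0% and 60.7% of all protein-coding genes. The imprinted gene PEG3 and its neighbour ZIM2 share 1 start region and a peak with scores of 10.1 in clone 1, 11.2 in clone 2 and 8.10 in control. ZSCAN1 had 8.73 in clone 1, 10.4 in clone 2 and 12.2 in control. ZFP14 had none in clone 1, 6.00 in clone 2 and 6.42 in control. ZIM3, whose KRAB domain is used in CRISPR interference, had a peak in clone 1 alone, with a score of 6.54.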
